A study of Homo sapiens with 42 samples.

Results

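The histone genes of this dataset are 34 rows of a table of 28266 gene symbols, read out in poly(A)-selected RNA of human lung fibroblasts. A gene was included if its symbol carried a histone cluster name (H1-, H2AC, H2BC, H3C or H4C, or the older HIST form) and if it had at least 50 counts summed over all 42 libraries. Of 72 symbols with such a name, 38 fell below that limit, 11 of them without a single count, and these 38 held 508 counts together. Just inside the limit was H4C4 with 59 counts, and just outside were H3C8 and H1-6 with 43 counts each. The 34 members comprised 3 genes for the linker histone H1, 7 for H2A, 12 for H2B, 5 for H3 and 7 for H4.

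All cells were IMR90, a strain of human diploid lung fibroblasts, in 12 groups. IMR90 ER:RAS cells carry a retroviral fusion of the estrogen receptor with oncogenic RAS, which 100 nM 4-hydroxytamoxifen (4OHT) switches on to give oncogene-induced senescence (OIS), with DMSO as control. IMR90 cells received bleomycin, which breaks DNA, at 50 µg/ml for 24 h, or DMSO. In each of these 4 states, after 7 days of culture, 1 µg/ml doxycycline was given for 72 h to induce a control shRNA (shCtrl) or 1 of 2 shRNAs against COPB2 (shCOPB2_1, shCOPB2_2), and RNA was taken on day 10, so that every group had received doxycycline. There were 3 libraries in each of the 6 ER:RAS groups and 4 in each of the 6 IMR90 groups. COPB2 is a subunit of the coat of COPI vesicles, which carry cargo back from the Golgi to the endoplasmic reticulum. The labels number the libraries of a group without saying that they came from separate cultures, while the study's supplement calls the replicates of its knockdown profiles in senescent cells independent experiments. For bleomycin that supplement gives n = 3, where 4 libraries per group are used here. P-values weigh a difference against the spread between these libraries, as estimated over all groups of a fit.

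Histones package DNA: H2A, H2B, H3 and H4 form the core of the nucleosome, and H1 binds the linker between nucleosomes. Most of these genes are replication-dependent, are clustered in the genome, lack introns and are expressed in S phase, when new DNA has to be packaged. Their mRNAs are the known exception among messages of animal cells, because they end shortly after a conserved stem-loop bound by SLBP and not in a poly(A) tail, and a poly(A) selection therefore discards them in large part. Some of these genes also give longer transcripts with a poly(A) tail, above all in cells that have left the cell cycle. H1-10 is a replication-independent linker histone with an ordinary polyadenylated mRNA, and H2BC20P is annotated as a pseudogene.

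The stem-loop at the end of the message is what sets this family apart in a poly(A) assay, so it was searched in the transcripts of GENCODE release 44, lifted to GRCh37. By symbol, 31 of the 34 members had a transcript there (H2BC8, H2BC7 and H2BC20P did not), and 30 of these 31 held a histone stem-loop of 16 bases. H1-10 held none. Among all 254413 annotated transcripts, 67 (0.0263%) had such a match within 20 bases of the end. The 30 members shared 8 distinct stem-loops, the most frequent in 15 genes. The stem-loops of the genes that the results turn on are given 5′ to 3′ in capitals with the bases around them, which end the transcript or lie within 1 base of its end except for H2BC21:
H1-2: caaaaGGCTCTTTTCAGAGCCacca
H2AC6: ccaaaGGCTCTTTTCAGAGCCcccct
H2BC12: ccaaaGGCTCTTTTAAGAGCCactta
H2BC21: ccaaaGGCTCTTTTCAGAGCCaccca
H2BC4: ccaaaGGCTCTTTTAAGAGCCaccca
H2BC15: ccaaaGGCTCTTTTCAGAGCCactca
H3C10: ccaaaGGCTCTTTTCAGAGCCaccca
H4C8: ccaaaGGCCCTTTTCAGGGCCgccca

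Of the 30 members with a stem-loop, 19 had only annotated transcripts that stop at it, among them H1-2 and H2BC12. Another 10 (H2AC6, H2BC5, H2BC4, H2BC11, H2BC15, H2BC18, H3C10, H3C6, H3C12 and H4C8) had in addition a transcript that ran past it or left it out, and for H2BC21 the annotated transcript ran 1729 bases past it. The longest annotated runs past the stem-loop measured 1128 bases for H2AC6, 769 for H3C10, 1862 for H3C6 and 1655 for H4C8. A table of counts per gene does not say which of these ends a read came from. Paralogs also share sequence, so that their reads may be split or lost: of all 75-base windows, the read length, 92.0% in H4C12, 91.4% in H4C11, 65.9% in H2AC17, 61.3% in H2AC13 and 39% in H2BC12 also occurred in another histone gene, and the counts of these genes are uncertain to that extent.

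The promoters show which members share their upstream sequence. The RefSeq table of GRCh38.p14 had an entry for 31 members (not for H4C3, H3C12 and H2BC20P), of which 27 lay on chromosome 6, 3 on chromosome 1 and 1 on chromosome 3. An H2A and an H2B gene faced away from each other in 6 pairs, with 193 to 247 bases between their starts: H2AC6 with H2BC4, H2AC8 with H2BC8, H2AC11 with H2BC11, H2AC17 with H2BC17, H2AC15 with H2BC15 and H2AC20 with H2BC21. In the 250 bases before the start, read on both strands, CCAAT occurred in 25 of 31 members (80.6%, against 32% of all 35116 promoters), TATAAA in 21 (67.7% against 10.7%), ATTTGCAT, the letters of the octamer motif, in 14 (45.2% against 1.63%) and GGGCGG in 6 (19.4% against 42.6%). The octamer letters were found in 5 of 7 H2A and 9 of 11 H2B genes and in no H1, H3 or H4 gene. Such a match describes the letters only. The windows of a member from each class with changes below and of the polyadenylated H1-10 are given 5′ to 3′ on the strand of the gene, with the first 3 of these motifs or their reverse complements in capitals; the H2AC6 window is also the upstream region of H2BC4, and no H4 window is shown because that of H4C8 held none of these letters:
H2AC6, chr6:26123922-26124171, plus strand: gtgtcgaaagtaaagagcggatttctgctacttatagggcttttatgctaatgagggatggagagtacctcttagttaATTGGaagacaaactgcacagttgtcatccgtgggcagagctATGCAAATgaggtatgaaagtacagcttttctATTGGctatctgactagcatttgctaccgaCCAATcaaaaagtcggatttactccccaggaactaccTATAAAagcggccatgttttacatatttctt
H2BC21, chr1:149886683-149886932, minus strand: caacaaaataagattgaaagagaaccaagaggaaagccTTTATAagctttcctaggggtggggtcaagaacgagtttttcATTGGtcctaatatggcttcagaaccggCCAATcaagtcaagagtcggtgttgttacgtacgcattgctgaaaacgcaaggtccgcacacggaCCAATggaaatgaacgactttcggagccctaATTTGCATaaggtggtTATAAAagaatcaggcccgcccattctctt
H3C10, chr6:27809801-27810050, plus strand: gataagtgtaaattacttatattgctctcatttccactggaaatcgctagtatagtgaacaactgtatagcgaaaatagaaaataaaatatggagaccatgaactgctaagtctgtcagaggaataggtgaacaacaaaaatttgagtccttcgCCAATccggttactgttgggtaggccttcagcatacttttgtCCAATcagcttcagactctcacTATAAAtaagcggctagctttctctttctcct
H1-2, chr6:26056471-26056720, minus strand: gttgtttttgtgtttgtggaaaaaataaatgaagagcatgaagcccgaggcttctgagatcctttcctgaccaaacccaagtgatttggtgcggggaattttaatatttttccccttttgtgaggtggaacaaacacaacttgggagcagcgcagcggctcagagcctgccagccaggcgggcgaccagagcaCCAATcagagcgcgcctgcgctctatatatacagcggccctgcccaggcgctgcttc
H1-10, chr3:129316287-129316536, minus strand: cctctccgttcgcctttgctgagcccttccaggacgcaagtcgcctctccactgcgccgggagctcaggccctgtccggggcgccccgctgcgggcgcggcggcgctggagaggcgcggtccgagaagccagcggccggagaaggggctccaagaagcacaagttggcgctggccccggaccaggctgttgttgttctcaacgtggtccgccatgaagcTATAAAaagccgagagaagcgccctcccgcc

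Depth was 13148194 to 20312816 counts per ER:RAS library and 15580424 to 23597310 per IMR90 library. In groups with shCtrl COPB2 averaged 340.4 to 479 counts per 1000000 (CPM), and with the COPB2 shRNAs 45.7 to 113. Markers of fibroblasts were mostly abundant (COL1A1 935 to 6069 CPM, VIM 3628 to 19828). In their lowest libraries LUM had 3.37 CPM, DCN 6.66, COL3A1 48.7 and PDGFRB 55.4. Most markers of epithelial, endothelial and immune cells were low (EPCAM up to 1.61 CPM, PECAM1 up to 2.91, CDH5 up to 3.10, PTPRC up to 1.96), apart from VWF (0.760 to 10.2), KRT8 (12.5 to 59.8) and CD68 (12.1 to 120.3). The factors that scale library size (TMM) ranged from 0.611 to 0.947 in the 4OHT libraries, so that levels there lean on the scaling.

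The 34 members held 247641 counts over all libraries. The polyadenylated linker histone H1-10 took 27.7% of them. Of the 178996 counts of the other 33 genes, H2B genes took 61.2%, H1 genes 20.1%, H2A genes 13.6%, H3 genes 2.59% and H4 genes 2.53%, as counts that are not corrected for transcript length. A few genes made up most of it: H2BC12 gave 39.6% of these counts, H1-2 20.1%, H2AC6 11.9% and H2BC21 11.5%.

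Summed over the 33 genes, the level was 363, 431, 399 and 319.7 CPM in the bleomycin libraries with shCtrl and 188, 102, 126 and 108 CPM in their DMSO controls, that is 378 ± 47.9 against 131 ± 39.6 (SD, n = 4 each), and the groups did not overlap. In the ER:RAS line the sum was 289, 252 and 202 CPM with 4OHT and 186, 200.0 and 161 CPM with DMSO, or 247 ± 43.6 against 182 ± 19.8 (SD, n = 3 each), again without overlap. That second difference rests on the scaling: on library totals alone the means were 189.6 and 181.0 CPM, whereas for bleomycin they were 411 and 138. With the COPB2 shRNAs the sum averaged 340.4 ± 55.4 and 431 ± 153 CPM after bleomycin, against 123 ± 22.9 and 139.7 ± 32.5 with DMSO. In ER:RAS cells it averaged 227 ± 47.5 and 235 ± 38.7 CPM with 4OHT, against 179 ± 24.4 and 211 ± 35.6 with DMSO. In bulk RNA, fewer cells that express a gene and less of its RNA per cell cannot be told apart.

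**Figure D1:**
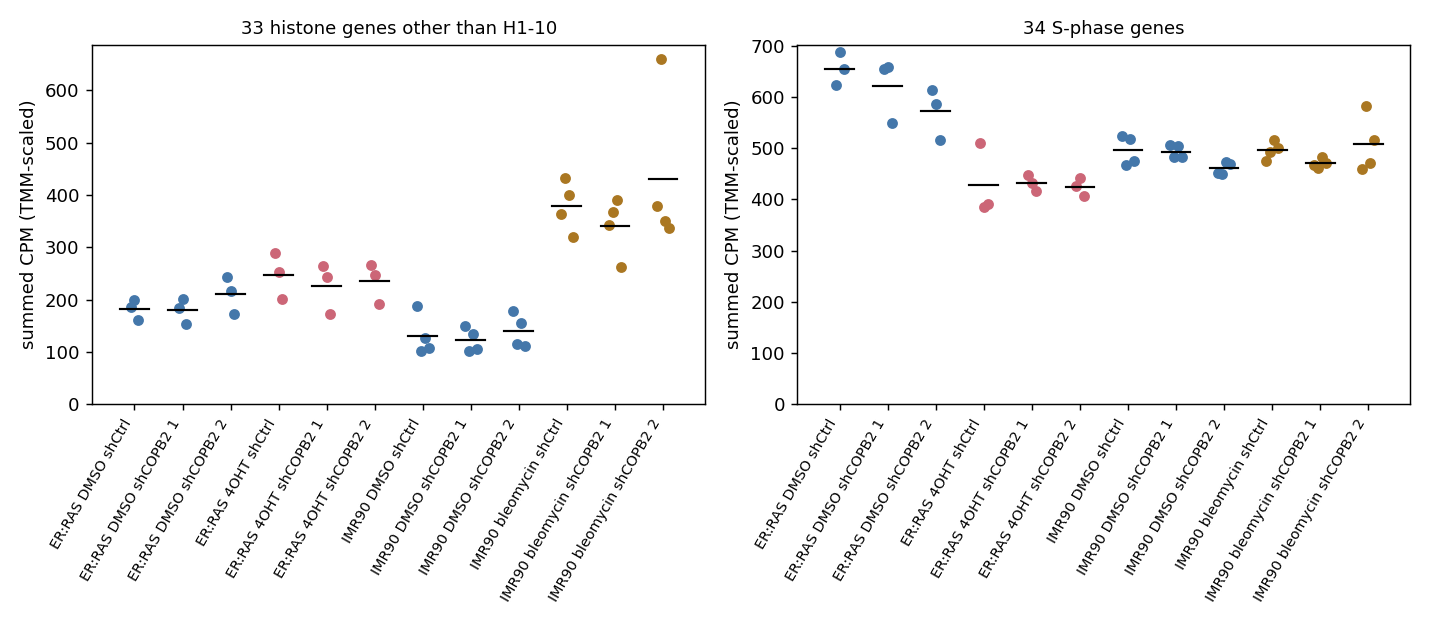
Summed level in CPM of the 33 histone genes other than H1-10 and of 34 S-phase genes, by group; each point is a library and each line the mean of its group. All bleomycin libraries (262 to 659 CPM for the histone sum) lie above all IMR90 DMSO libraries (102 to 188), while the S-phase sum is lower in all 4OHT libraries (385 to 510.2) than in all ER:RAS DMSO libraries (516 to 687) and overlaps between bleomycin and DMSO.

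By class, the bleomycin libraries with shCtrl were above their DMSO controls in each of the replication-dependent sets. H2A genes summed to 48.6 ± 6.10 CPM against 23.6 ± 6.72 (SD, n = 4 each), H2B genes to 209 ± 18.2 against 80.9 ± 25.2, H3 genes to 11.6 ± 1.33 against 3.48 ± 1.23 and H4 genes to 10.4 ± 1.25 against 3.66 ± 1.15. The H1 genes without H1-10, which are H1-2 and the rarely counted H1-4, summed to 98.8 ± 24.8 CPM against 19.5 ± 10.7. With 4OHT the H2B sum was 180.4 ± 27 against 113 ± 16.2 CPM (SD, n = 3 each), while H2A (29 ± 2.30 against 26.4 ± 1.93), H3 (5.11 ± 0.935 against 4.33 ± 0.348), H4 (5.01 ± 0.898 against 3.97 ± 0.981) and H1 (27.9 ± 15.6 against 35 ± 4.20) differed by less. On library totals alone the means with 4OHT and DMSO were 22.5 and 26.4 CPM for H2A, 3.91 and 4.35 for H3 and 3.85 and 3.98 for H4. The direction for these classes in OIS therefore rests on the scaling. For H2B the means were 139 and 112 CPM and for H1 without H1-10 20.3 and 34.6, in the same direction as with TMM. The class sums are descriptions, and the tests follow gene by gene.

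With shCtrl, histone genes of every class were higher after bleomycin, and the polyadenylated H1-10 was lower. Of 21 members with enough counts to be tested, 17 rose and 1 fell at an adjusted p under 0.05 by the quasi-likelihood test of edgeR, that is 18 of 21, where 31.2% of all 14783 genes tested were called (15.4% higher, 15.8% lower). The members that passed the filter on counts did so partly through the group in which they were high: with a filter on the DMSO libraries alone, 14 rose and 1 fell of 16 tested. The median log2 fold change of the 20 genes other than H1-10 was 1.61, all 20 positive, against -0.01 over all genes. These genes include members that a filter on the DMSO libraries alone left out. The median, the signs and the overlap given next therefore lean partly on that selection. Libraries of both groups did not overlap in 15 of the 21 members tested, and in 28% of all genes tested. All 15 were among the 18 called.

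Among the linker histones, the replication-independent H1-10 had 46.1, 58.2, 32.4 and 47.0 CPM in the bleomycin libraries, against 138, 91.2, 81.0 and 95.4 in the DMSO libraries. All bleomycin libraries lay below all controls (log2 fold change -1.17, SE 0.23, adjusted p = 0.000500). H1-2, a replication-dependent linker histone, went the other way, with 95.8, 128, 102 and 67.7 CPM in the bleomycin libraries, against 34.1, 14.3, 20.2 and 9.21 in the DMSO libraries. The groups were far apart (log2 fold change 2.32, SE 0.45, adjusted p = 0.000394), but the control libraries themselves ranged from 9.21 to 34.1 CPM.

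Of the H2A genes, whose products form a dimer with H2B in the nucleosome, 3 of 5 tested rose. H2AC6 had 36.8, 49.6, 41.2 and 39.6 CPM in the bleomycin libraries, against 24.3, 15.5, 27.8 and 16.6 in the DMSO libraries. Its groups did not overlap (log2 fold change 0.96, SE 0.18, adjusted p = 0.000376). H2AC8 rose from 0.862 ± 0.520 to 2.77 ± 0.605 CPM (log2 fold change 1.69, SE 0.38, adjusted p = 0.00168) and H2AC13 from 0.546 ± 0.363 to 2.18 ± 0.672 CPM (log2 fold change 1.94, SE 0.39, adjusted p = 0.000544), both without overlap. H2AC11 (0.47, adjusted p = 0.450) and H2AC17 (1.07, adjusted p = 0.203) did not pass the test in edgeR and are named here after their values were seen.

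Of the H2B genes, 8 of 9 tested rose, of which H2BC15 and H2BC20P lost their call with a filter on the DMSO libraries alone. H2BC12, with the most counts among the replication-dependent genes, had 120.4, 139, 132 and 113 CPM in the bleomycin libraries, against 82.4, 41.9, 39.6 and 50.4 in the DMSO libraries. The lowest bleomycin library was above the highest control (log2 fold change 1.21, SE 0.21, adjusted p = 0.000116). H2BC21, the gene whose annotated transcript runs past the stem-loop and so can carry a poly(A) tail, had 52.2, 53.8, 51.0 and 37.4 CPM in the bleomycin libraries, against 18.6, 10.4, 11.5 and 11.4 in the DMSO libraries. Its adjusted p-value was the lowest of all members (log2 fold change 1.88, SE 0.20, adjusted p = 5.78e-07), although bleomycin replicate 4 and DMSO replicate 1 stood apart from the other libraries of their groups.

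H2BC4, which shares its upstream region with H2AC6, had 5.84, 5.56, 9.94 and 9.12 CPM in the bleomycin libraries, against 1.79, 0.963, 2.93 and 1.74 in the DMSO libraries, again without overlap (log2 fold change 2.00, SE 0.32, adjusted p = 4.94e-05). Of the other H2B genes, H2BC8 rose by 2.41 (SE 0.46, adjusted p = 0.000360), H2BC11 by 1.24 (SE 0.31, adjusted p = 0.00387) and H2BC5 by 0.84 (SE 0.15, adjusted p = 0.000171) on the log2 scale, and their groups did not overlap. H2BC15 rested on 13 to 25 counts in the bleomycin libraries and 3 to 4 counts in the controls (log2 fold change 2.25, SE 0.43, adjusted p = 0.000387). The pseudogene H2BC20P was called as well (log2 fold change 2.35, SE 0.83, adjusted p = 0.0352), but it had at most 14 counts per library and its groups overlapped. H2BC9 was at 0.52 (adjusted p = 0.502).

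Of the H3 genes 3 of 3 tested rose after bleomycin, and of the H4 genes 2 of 2, of which H4C5 did not pass a filter on the DMSO libraries alone. H3C10, a canonical H3 gene with transcripts that end both at the stem-loop and past it, had 4.83, 6.94, 5.40 and 5.18 CPM in the bleomycin libraries, against 1.97, 1.01, 1.57 and 0.684 in the DMSO libraries. Its lowest bleomycin library exceeded its highest control (log2 fold change 2.07, SE 0.33, adjusted p = 5.59e-05). H3C4 rose by 2.01 (SE 0.37, adjusted p = 0.000215) without overlap, and H3C6 by 0.80 (SE 0.28, adjusted p = 0.0310) with overlap. H4C8 had 6.89, 7.97, 9.43 and 8.29 CPM in the bleomycin libraries, against 2.93, 2.43, 3.67 and 1.90 in the DMSO libraries, without overlap (log2 fold change 1.54, SE 0.23, adjusted p = 2.23e-05). H4C5 rose by 1.27 (SE 0.43, adjusted p = 0.0284), with overlapping groups. H4C12 did not pass the filter on counts, and its level was 0.574, 0.516, 0.575 and 0.570 CPM after bleomycin and 0.299, 0.229, 0.0489 and 0.211 CPM with DMSO.

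Leaving out libraries in turn gave 15 to 18 called members, and 15 of the 18 were called in all 8 such fits. H3C6, H4C5 and H2BC20P lost their call without bleomycin replicate 1 or 3 or DMSO replicate 1 or 4, and H2BC20P also without bleomycin replicate 4 or DMSO replicate 3.

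**Figure D2:**
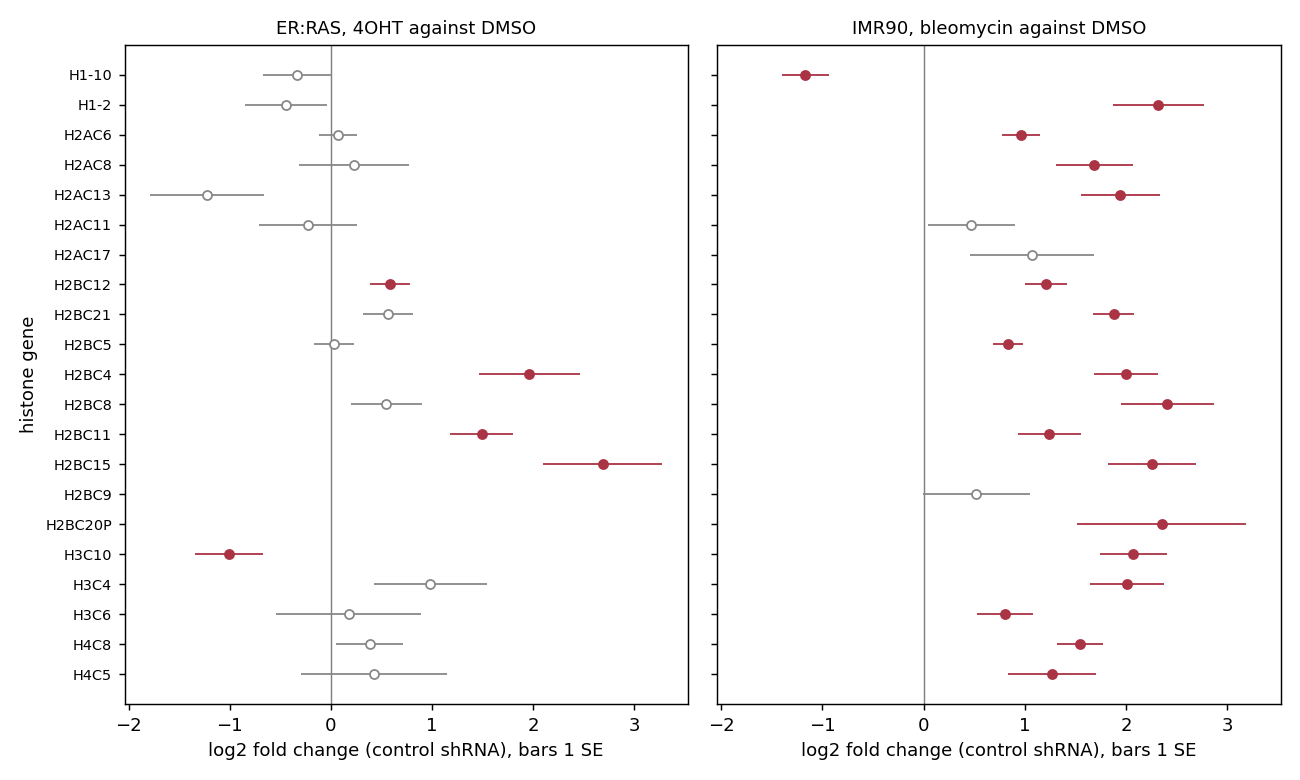
Log2 fold change of each tested member with shCtrl, for 4OHT against DMSO in ER:RAS cells and for bleomycin against DMSO in IMR90 cells; points are the edgeR estimates, bars their standard errors, and filled red points mark members called at an adjusted p under 0.05. After bleomycin 17 members lie to the right and H1-10 to the left; with 4OHT 4 H2B genes lie to the right and H3C10 to the left.

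In OIS, 4 H2B genes rose and H3C10 fell, and the share of members called was no larger than that of all genes. With shCtrl, 4 members rose and 1 fell of 18 tested with 4OHT, 5 called in all, where 35.7% of all 14297 genes were called (15.5% higher, 20.2% lower). The median log2 fold change was 0.31 over the 18 members and 0.38 without H1-10, against -0.08 over all genes. Among these members was H2BC15, which a filter on the DMSO libraries alone left out. The 4 that rose were H2BC12, H2BC4, H2BC11 and H2BC15, and the 1 that fell was H3C10, and the calls of H2BC12 and H3C10 were lost when single libraries were left out. Libraries of both groups did not overlap in 6 of the 18 members, and in 38.5% of all genes tested.

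H2BC12 had 140.1, 130.1 and 97.8 CPM in the 4OHT libraries, against 75.8, 88.9 and 64.1 in the DMSO libraries. The groups did not overlap (log2 fold change 0.59, SE 0.20, adjusted p = 0.0320). H2BC4 had 2.89, 9.25 and 9.82 CPM in the 4OHT libraries, against 1.78, 1.33 and 2.16 in the DMSO libraries. All 4OHT libraries were above all controls, 2 of them by several fold and replicate 1 by little (log2 fold change 1.96, SE 0.50, adjusted p = 0.00572). H2BC11 had 2.08, 1.26 and 1.77 CPM in the 4OHT libraries, against 0.407, 0.760 and 0.529 in the DMSO libraries, without overlap (log2 fold change 1.49, SE 0.31, adjusted p = 0.00155). H2BC15 had 0.993, 2.31 and 1.58 CPM in the 4OHT libraries, against 0.357, 0.253 and 0.0962 in the DMSO libraries, which rest on 11 to 35 and 2 to 7 counts (log2 fold change 2.69, SE 0.59, adjusted p = 0.00206). H2BC15 did not pass a filter on the DMSO libraries alone.

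H3C10 fell with 4OHT: it had 1.17, 0.859 and 1.01 CPM in the 4OHT libraries, against 2.24, 1.77 and 1.68 in the DMSO libraries. These groups did not overlap (log2 fold change -1.0, SE 0.33, adjusted p = 0.0284), but the call was lost in 5 of the 6 fits that left out a library, all but the one without DMSO replicate 2. H2BC12 lost its call without 4OHT replicate 1 or 2 or DMSO replicate 1 or 3, while H2BC4, H2BC11 and H2BC15 kept theirs in all 6. Replicate 1 with 4OHT had the TMM factor of 0.611. Without TMM scaling H2BC12 was at 0.32 (adjusted p = 0.101), so that its call rests on the scaling.

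The other named members did not pass the test in OIS. H1-10 had 162, 106 and 68.1 CPM in the 4OHT libraries, against 116, 175 and 103 in the DMSO libraries, and the groups overlapped (log2 fold change -0.33, SE 0.34, adjusted p = 0.496). The estimates were -0.44 for H1-2 (adjusted p = 0.440) and 0.07 for H2AC6. H2AC13 was at -1.22 (adjusted p = 0.108) with 2 to 7 counts per 4OHT library and 11 to 16 per control. H2BC21 had 37.7, 29.3 and 20.5 CPM in the 4OHT libraries, against 19.1, 21.3 and 14.5 in the DMSO libraries. These groups of H2BC21 overlapped slightly (log2 fold change 0.57, SE 0.25, adjusted p = 0.0894). H2BC5 was at 0.03, H2BC8 at 0.55, H3C4 at 0.98 (adjusted p = 0.195), H4C8 at 0.38 and H4C5 at 0.43. H4C12 was not tested, and 2 of its 4OHT libraries had no count; a floor of 3 counts, which covers counting error only, would allow up to 0.271 CPM there.

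**Figure D3:**
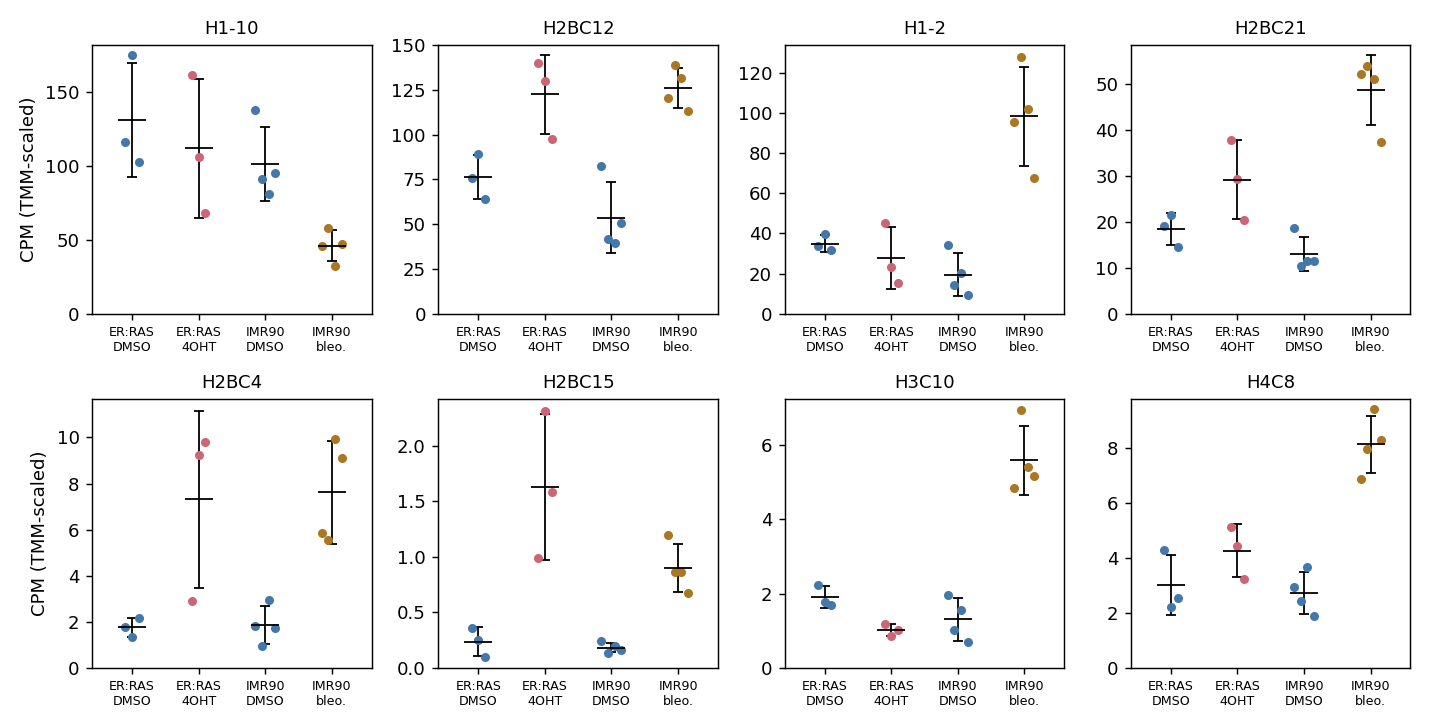
Level in CPM of 8 histone genes in the 4 groups with shCtrl; points are libraries, bars the mean and SD (n = 3 for ER:RAS groups, n = 4 for IMR90 groups), and each panel has its own scale. H1-10 is lower after bleomycin, H1-2, H2BC21, H3C10 and H4C8 are higher after bleomycin, and H2BC4, H2BC12 and H2BC15 are higher in both models.

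The responses of both models were compared directly in a fit of all 42 libraries, as the OIS response minus the bleomycin response with shCtrl. Model and cell line change together here and cannot be told apart. Of 22 members tested, 8 differed, where 20.3% of all 15299 genes were called. The difference was negative for H1-2 at -2.67 (SE 0.67, adjusted p = 0.00372), for H3C10 at -3.01 (SE 0.50, adjusted p = 3.24e-05) and for H2AC13 at -3.10 (SE 0.68, adjusted p = 0.000936). It was also negative for H2BC21 (-1.23, adjusted p = 0.00723), H4C8 (-1.08, adjusted p = 0.0478), H2AC6 (-0.82, adjusted p = 0.0290), H2BC5 (-0.74, adjusted p = 0.0143) and H2BC8 (-1.79, adjusted p = 0.0451).

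H2BC4, H2BC11, H2BC12 and H2BC15 rose in both models, and a difference between the responses was not detectable for them in this fit: it was 0.02 (SE 0.54) for H2BC4, 0.31 (SE 0.45) for H2BC11, 0.51 (SE 0.74) for H2BC15 and -0.55 (SE 0.32) for H2BC12 on the log2 scale. For H2BC12 a difference was called on library totals alone and without IMR90 DMSO replicate 1. Its call in OIS was lost in 4 of 6 fits that left out a library. With a filter on the DMSO libraries alone, H2BC15 lost its call in both models. H3C10 was the only member called in opposite directions. Its lower call in OIS was lost in 5 of 6 fits that left out a library, and with DESeq2 size factors or the DESeq2 Wald test. Between the DMSO controls of the lines, 0 of 22 members were called by edgeR (0.346% of all genes were), with 4 at an unadjusted p under 0.05 (H2BC12, H2BC21, H2BC5 and H2BC8), where 11.5% of all genes were. Leaving out libraries in turn gave 4 to 9 members with a difference between models: H2BC8 lost its call in 11 of 14 such fits, H4C8 in 9, H2AC6 in 5 and H2BC5 in 1, without ER:RAS DMSO replicate 1, while H1-2, H2AC13, H2BC21 and H3C10 kept theirs in all 14.

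The same senescence responses were measured with each COPB2 shRNA, in libraries not shared with the shCtrl comparison. With 4OHT, 3 of 18 members were called with shCOPB2_1 and 3 with shCOPB2_2, all higher, where 36.9% of all genes were called with each (15.4% and 14.9% higher, 21.5% and 22% lower). They were H2BC4, H2BC11 and H2BC15 in both cases, so that these 3 genes were called with all 3 shRNAs. H2BC15 entered each of these tests through the 4OHT libraries: with a filter on the DMSO libraries alone it was not tested, and H2BC4 and H2BC11 remained, 2 of 16 tested with each COPB2 shRNA. Replicate numbers paired the libraries in these 2 comparisons, and with the number as a block 5 members were called with shCOPB2_1 (H2BC12 and H3C10 in addition) and 7 with shCOPB2_2 (H1-10, H1-2, H2BC21 and H3C10 in addition).

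H2BC4 had, with shCOPB2_1, 8.29, 7.73 and 9.12 CPM in the 4OHT libraries, against 1.05, 0.808 and 2.32 in the DMSO libraries (log2 fold change 2.48, adjusted p = 0.00113). With shCOPB2_2 it had 7.85, 7.92 and 9.13 CPM in the 4OHT libraries, against 1.10, 1.52 and 2.55 in the DMSO libraries (2.16, adjusted p = 0.00297). In both cases every 4OHT library exceeded every control. H2BC15 had 1.97, 1.55 and 3.08 CPM in the 4OHT libraries, against 0.366, 0.124 and 0.228 in the DMSO libraries with shCOPB2_1 (3.08, adjusted p = 0.000596) and 2.14, 1.53 and 2.48 CPM in the 4OHT libraries, against 0.254, 0.122 and 0.577 in the DMSO libraries with shCOPB2_2 (2.52, adjusted p = 0.00247). H2BC11 rose by 1.54 (adjusted p = 0.000917) and 1.90 (adjusted p = 0.000199). H3C10 was at -0.81 (adjusted p = 0.0747) and -0.77 (adjusted p = 0.0859), and H2BC12 at 0.46 and 0.27, none of them called without the block.

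After bleomycin, 18 of 21 members were called with each COPB2 shRNA, 17 higher and 1 lower, where 35.2% of all genes were called with shCOPB2_1 (17.4% higher, 17.8% lower) and 40% with shCOPB2_2 (21.7% higher, 18.3% lower). With a filter on the DMSO libraries alone 15 of 16 tested were called with each; H2AC17, H2BC15 and H4C5 were lost with both and H2BC9 with shCOPB2_1, while H3C6 was gained with shCOPB2_1. Called with all 3 shRNAs were 15 genes that rose and the 1 that fell, H1-10, and of 21 members 19 were positive and 1 was negative with all 3. These counts of calls and signs include members that the DMSO filter left out. H1-10 fell by 1.22 and 0.70 on the log2 scale with the COPB2 shRNAs. With shCOPB2_2 its groups overlapped, and its call was lost without bleomycin replicate 3 (log2 fold change -0.54, adjusted p = 0.0635) or 4 (-0.62, adjusted p = 0.0619), without DMSO replicate 1 (-0.56, adjusted p = 0.0798), and when only the libraries compared were fitted (-0.68, adjusted p = 0.0653). H2BC21 rose by 1.58 (adjusted p = 3.28e-06) and 1.74 (adjusted p = 1.00e-06). H1-2 rose by 2.37 (adjusted p = 0.000273) and 2.71 (adjusted p = 7.34e-05), with 99.7, 283, 77.3 and 77.6 CPM in the bleomycin libraries of shCOPB2_2, where replicate 2 stood far above the others. Without that library its change was 2.09, still past the threshold. H3C10 rose by 1.64 and 1.37, and H4C8 by 1.5 and 1.60.

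**Figure D4:**
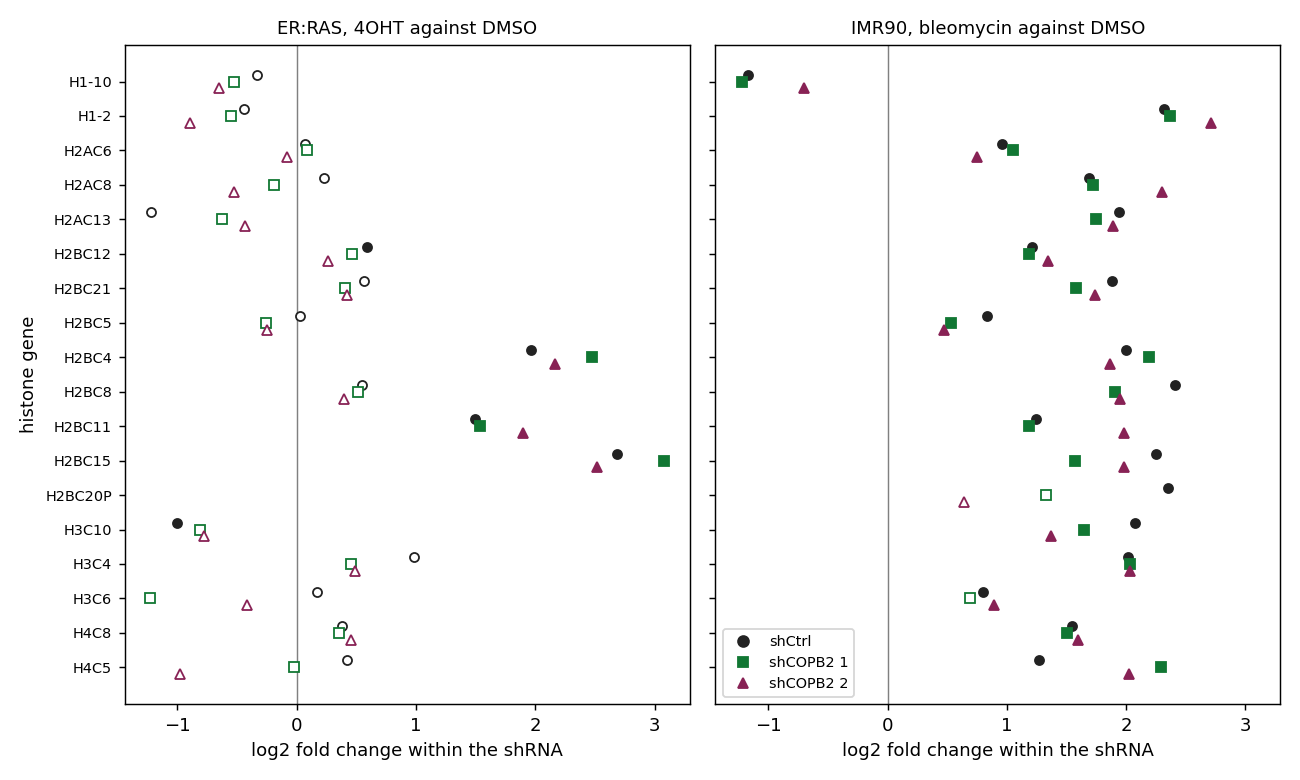
Log2 fold change of the named members for senescence against DMSO with each of the 3 shRNAs, in ER:RAS cells (4OHT) and IMR90 cells (bleomycin); filled symbols mark members called at an adjusted p under 0.05. H2BC4, H2BC11 and H2BC15 are filled with all 3 shRNAs in both panels, and H1-10 is filled on the left with all 3 in the bleomycin panel.

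COPB2 knockdown itself moved no member past the threshold. In the 8 comparisons of a COPB2 shRNA with shCtrl within a state, of which those of the same state share their control libraries, 0 members were called by edgeR or by DESeq2, and 0 in the 4 tests of whether the knockdown effect differed between senescent and DMSO cells. At an unadjusted p under 0.05 there was 1 member each in the 2 IMR90 DMSO comparisons (H4C5 with shCOPB2_1, H2BC11 with shCOPB2_2), where 1.12% of all genes were in each, and none in the other 10 tests, where 0.811% to 6.74% of all genes were. The background of calls was low too: the share of all genes called was 0.00699% in ER:RAS DMSO cells with either shRNA, 0.14% and 0.224% with 4OHT, 0.00676% in IMR90 DMSO cells with either shRNA, 0.00676% and 0.0744% after bleomycin, and 0% in the 4 tests of a difference. Fold changes of members on the log2 scale ran from -0.57 to 0.55 and -0.37 to 0.67 in ER:RAS DMSO cells, from -0.85 to 0.42 and -0.76 to 0.44 with 4OHT, from -1.31 to 1.11 and -0.93 to 0.98 in IMR90 DMSO cells, and from -0.47 to 0.44 and -0.73 to 0.50 after bleomycin.

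Members were also set against their annotated transcript ends. After bleomycin with shCtrl, 9 of 9 tested genes that have a transcript past or without the stem-loop rose (H2AC6, H2BC21, H2BC5, H2BC4, H2BC11, H2BC15, H3C10, H3C6 and H4C8, median log2 fold change 1.54), as did 6 of 9 whose annotated transcripts all stop at the stem-loop (median 1.27), where 15.4% of all genes rose. With 4OHT, 3 of 9 in the first set rose and 1 fell (median 0.38), and 1 of 7 in the second rose (median 0.23), where 15.5% of all genes rose and 20.2% fell. With a filter on the DMSO libraries alone, H2BC15 of the first set lost its call in both models. H4C5 of the second set lost its call after bleomycin with that filter. The medians given above include both genes. The difference between these sets was not tested. Fold changes in this paragraph come from counts per gene and do not say which end was used.

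Genes of S phase, when replication-dependent histones are normally made, fell more often than they rose in both models. Of 34 such genes 23 fell and 4 rose with 4OHT (median log2 fold change -1.17), where 20.2% of all genes fell and 15.5% rose, and 17 fell and 5 rose after bleomycin (median -0.71), where 15.8% fell and 15.4% rose. MKI67, a mark of cycling cells, fell by 6.65 with 4OHT and by 3.05 after bleomycin on the log2 scale. Those that rose, named after their values were seen, were CCNE1, CDC25A, CDK2 and E2F1 with 4OHT and CCNE1, CDC25A, LIG1, PCNA and TYMS after bleomycin. The summed level of the list was 429 ± 70.6 CPM with 4OHT against 655 ± 31.9 with DMSO, and 495 ± 17.4 after bleomycin against 496 ± 29.4. The part that the share of S-phase cells has in the histone levels was not tested.

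Genes listed for histone mRNA 3′-end processing mostly did not pass the test. The list is wider than the factors that cut at the stem-loop and also holds general factors of mRNA, such as PAPOLA and UPF1. Of its 39 genes, 3 rose and 3 fell with 4OHT (median log2 fold change 0.04), and 2 rose and 2 fell after bleomycin (median -0.04), where 35.7% and 31.2% of all genes were called. SLBP, which binds the stem-loop, was at 0.33 with 4OHT (adjusted p = 0.0900) and -0.05 after bleomycin (adjusted p = 0.809). NPAT, the coactivator of histone genes, was at 0.34 (SE 0.83) and -0.04 (SE 0.41), and LSM11 of the U7 particle at 0.62 (SE 0.41) and -0.13 (SE 0.22), none of them called. For NPAT the standard error exceeded the estimate in both models. Called with 4OHT and named by rank were SNRPB (410 ± 256 against 155 ± 33.4 CPM, mean and SD, log2 fold change 1.28, adjusted p = 0.0192), LSM10 (log2 fold change 0.93, adjusted p = 0.0485) and ZNF473 (log2 fold change -0.97, adjusted p = 0.00460). After bleomycin these were CSTF3 (log2 fold change 0.57, adjusted p = 0.00245), CSTF2T (log2 fold change -0.50, adjusted p = 0.00159) and CSTF2 (log2 fold change 0.46, adjusted p = 0.00542).

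Histone chaperones, which hand histones to DNA, were called lower in 4 of 23 and higher in 1 with 4OHT, where 20.2% of all genes fell and 15.5% rose, and lower in 9 and higher in 1 after bleomycin, where 15.8% fell and 15.4% rose. ASF1B, a chaperone of H3 and H4 in dividing cells, fell by 3.75 with 4OHT (adjusted p = 3.07e-06) and by 1.41 after bleomycin (adjusted p = 0.00578). CHAF1B of the chromatin assembly factor fell by 2.97 and 1.54, and HJURP, the chaperone of the centromeric H3, by 1.85 and 1.55. Of 10 replacement histones outside the clusters 8 were tested, of which 1 rose and 2 fell with 4OHT and 1 rose and 4 fell after bleomycin, beside the same shares of all genes. H2AJ rose in both models (log2 fold change 1.40, adjusted p = 0.0281, and log2 fold change 0.89, adjusted p = 0.0260), and CENPA, the centromeric H3, fell in both (log2 fold change -2.97, adjusted p = 0.000614, and log2 fold change -2.00, adjusted p = 0.000342). With 4OHT the H2AJ libraries spread widely, at 153 ± 113 CPM against 53.2 ± 8.96 with DMSO (mean and SD). H2AZ1 was at 0.47 and 0.09, H2AZ2 fell by 0.65 after bleomycin and MACROH2A2 by 1.86 with 4OHT.

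RNAs listed as carrying no poly(A) tail, mostly symbols that begin with SNORA, SNORD or SCARNA, were set beside the histone genes. They are not mRNAs and few could be tested, so they cannot show whether carry-over of untailed mRNA differed between groups. Of 579 such symbols, 17 could be tested with 4OHT, of which 0 rose and 3 fell, and 28 after bleomycin, of which 1 rose and 0 fell, where 35.7% and 31.2% of all genes were called. Their summed level was 65.3 ± 21.6 CPM after bleomycin against 59.0 ± 7.64 with DMSO, and 66.8 ± 16.2 with 4OHT against 52.3 ± 16.6. On library totals alone their means with 4OHT and its DMSO control were 53.2 and 53.3 CPM. Beside them the 33 histone genes summed to 378 ± 47.9 and 131 ± 39.6 CPM in the IMR90 groups. How much of the histone signal came from tailed and how much from untailed mRNA was not tested.

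Members that were too rare to test moved within few counts. Together the 12 members not tested in the fit of all libraries held 1098 counts, and summed to 1.87, 2.29, 2.53 and 2.02 CPM after bleomycin, 1.316, 0.917, 1.47 and 0.895 CPM in the controls, 1.08, 1.12 and 0.950 CPM with 4OHT and 1.324, 1.65 and 1.01 CPM in its controls. The bleomycin libraries lay above all their controls, and the 4OHT libraries overlapped with theirs. H1-4, a replication-dependent linker histone, had 2, 6, 4 and 10 counts in the bleomycin libraries and 0, 1, 1 and 0 in the controls, most of which lie near the floor.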

How the data were processed

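RNA of 42 samples was selected for poly(A), and directional libraries were read from a single end with 75-base reads. The authors deposited raw read counts per gene symbol, without normalization. The study's methods name Tophat, hg19, an Ensembl annotation and HTSeq, while the submitters' processing notes list DRAGEN, STAR 2.7.8a, hg38 and DESeq2 1.32.0. The counting mode and the handling of reads that map to several genes are not given in the sources used here, and both matter for histone paralogs. Transcripts and promoters came from other annotations and were joined by symbol.

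Groups were taken from the labels. Counts were filtered with filterByExpr, scaled with TMM factors and tested two-sided in edgeR 4.0.16 (R 4.3.3, quasi-likelihood F-test), in a fit of 18 ER:RAS libraries, of 24 IMR90 libraries and, for comparisons between lines, of all 42, over 20 contrasts. P-values were adjusted over all genes tested by the Benjamini-Hochberg method, with calls at an adjusted p under 0.05. CPM are counts over the library size times the TMM factor. The members and gene lists were chosen with earlier results of these data known. Named were the 3 members of each class with the most counts, called members with a mean of at least 20 counts (up to 12 in each direction), members called between models, and of each list the 3 called genes with the largest change together with SLBP, NPAT, LSM11 and H2AZ1. Outside this rule H2BC20P and H2BC9 are named too, with at most 14 and 13 counts in any library. Other exceptions are marked. Of the genes that met the rule, 1 is not reported here.

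No libraries were duplicates: in 54 pairs within groups the chi-square per degree of freedom was 7.15 to 326. Numbered replicates deviated together, with every pair's correlation above 0.1, in 4 comparisons (4OHT with shCOPB2_1, 0.293 to 0.667, and shCOPB2_2, 0.332 to 0.678, and both knockdown comparisons after bleomycin, 0.328 to 0.690), and in the others at least 1 pair was lower, down to -0.433. Alternatives were DESeq2 size factors, library totals, no filter or a filter on DMSO libraries, the Wald test of DESeq2 1.42.0, only the libraries compared, a replicate block and leaving out each library; library totals and the DMSO filter were chosen after seeing the data.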

Additional observations from a re-analysis of the deposited data

Results flagged for a closer look

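In groups of 4 libraries, 10 of 144 tested values had a library far from the other 3 by Dixon's criterion (6.94%, where chance gives about 1 in 20). Replicate 2 of bleomycin with shCOPB2_2 stood out in 4 of them: H1-2 at 283 CPM (4315 counts) against 77.3 to 99.7 in the other 3 libraries, H2BC12 at 215 CPM against 123 to 135, H3C10 at 5.26 CPM against 3.94 to 4.09, and the sum of the 33 histone genes at 659 CPM against 337 to 378. In the groups with shCtrl, H2BC21 was low in bleomycin replicate 4 (37.4 CPM against 51.0 to 53.8) and high in IMR90 DMSO replicate 1 (18.6 CPM against 10.4 to 11.5). H4C12 was at 0.516 CPM in bleomycin replicate 2 with shCtrl, against 0.570 to 0.575, which rests on 9 counts against 10 to 12. H2AC8 was high in replicate 1 of IMR90 DMSO with shCOPB2_1 (1.18 CPM against 0.548 to 0.653) and with shCOPB2_2 (1.25 CPM against 0.586 to 0.695), and the H3 sum was at 4.87 CPM in replicate 3 of IMR90 DMSO with shCOPB2_1, against 3.10 to 3.36.

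The OIS and bleomycin responses with shCtrl differed by the edgeR test of the difference itself for 8 members. On the log2 scale, OIS minus bleomycin, the difference was -0.74 for H2BC5, -0.82 for H2AC6, -1.08 for H4C8, -1.23 for H2BC21, -1.79 for H2BC8, -2.67 for H1-2, -3.01 for H3C10 and -3.10 for H2AC13. Line and treatment change together in this comparison and cannot be told apart.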

How the results depend on the processing

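With 4OHT and shCtrl 5 members were called (4 higher, 1 lower); 3 were called without a filter on low counts and 3 when only the libraries compared were fitted, and the number called lower was 0 in both and with DESeq2 size factors and the DESeq2 Wald test. With shCOPB2_1 the 3 calls became 5 with the replicate block, and with shCOPB2_2 they became 7 with the block and 6 without TMM. The 8 differences between models became 4 without the filter and 5 when only the libraries compared were fitted. The block changed no other count by over 1.5 times; with shCtrl it added H2BC21 in OIS (6 calls).

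Leaving out a library in turn gave 3 to 5 calls in OIS with shCtrl (3 to 5 higher, 0 to 1 lower), 3 to 4 with either COPB2 shRNA, 15 to 18 after bleomycin with shCtrl (14 to 17 higher, 1 lower), 16 to 18 with either COPB2 shRNA, 4 to 9 between models and 0 for knockdown, its differences and the lines. Signs changed for uncalled members in OIS with shCtrl: without TMM for H2AC6 (-0.19), H2AC8 (-0.10), H2BC5 (-0.21) and H3C6 (-0.047), and over the left-out libraries H2AC8 ran from -0.53 to 0.68, H3C6 from -0.25 to 0.75 and H4C5 from -0.27 to 0.91; the cause was not tested. Without TMM the median of all genes in OIS shifted by -0.25 and with DESeq2 size factors by 0.12. Beyond these, named members kept direction and side of the threshold in 599 values with a library left out (53 lost and 1 gained a call) and 534 under other settings (22 lost, 1 gained).

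Few counts per library limit H2AC11, H2AC17, H2BC9, H2BC15, H2BC20P, H4C5 and H4C12. Calls of genes from the lists were not examined under other settings or with libraries left out.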

Other observations

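The 38 histone symbols below 50 counts, which entered no test, gave 1.05, 1.15, 1.15 and 0.933 CPM together in the bleomycin libraries with shCtrl, 0.299, 0.367, 0.880 and 0.421 in the IMR90 DMSO libraries, 0.451, 0.463 and 0.253 with 4OHT and 0.713, 0.317 and 0.385 in the ER:RAS DMSO libraries. The bleomycin libraries, with 18 to 22 counts each, lay above all 4 controls, with 5 to 18 counts. With 4OHT the groups overlapped.

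In the divergent pairs where both genes were tested after bleomycin, H2AC6 was at 0.96 and H2BC4 at 2.00, H2AC8 at 1.69 and H2BC8 at 2.41, and H2AC11 at 0.47 and H2BC11 at 1.24 on the log2 scale. With 4OHT the same pairs were at 0.07 and 1.96, 0.23 and 0.55, and -0.23 and 1.49. In each of these 3 pairs the H2B gene had the larger estimate, in both models; the difference within a pair was not tested.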
